A study of Mus musculus with 6 samples.

Results

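Imprinted growth-control genes were followed in primary ventricular cardiomyocytes from 1-day-old C57BL/6J mice, in which the transcript of the secreted ligand gene Gdf11 was lowered. The 10 genes were those rows of the deposited table, which lists 54532 genes, whose name was H19, Meg3, Rian, Mirg, Dlk1, Peg3, Mest, Plagl1, Ndn or Cdkn1c, and each name matched 1 row. One group of 3 libraries came from cells given a short hairpin RNA against Gdf11 (shGDF11), and the other 3 from cells given a control hairpin (called sh-nc in the treatment labels and sh-Vector in the protocol). Both groups were wild-type cells of the C57BL/6 strain, exposed at a multiplicity of infection of 200 and harvested after 48 h. Whether the 3 libraries per group represent separate cultures is not in the labels, so a p-value here speaks of the spread among those samples alone, and that spread may be technical. The table gives FPKM, that is, fragments per kilobase of gene length and per unit of library depth, and each library had 15267083 to 16152910 reads in listed genes.

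An imprinted gene is transcribed mainly from the copy inherited from 1 parent, set by DNA methylation marks laid down in the egg or sperm. Many imprinted genes act on growth before and around birth: paternally expressed genes such as Igf2 and Dlk1 tend to promote it, and maternally expressed genes such as Cdkn1c and H19 tend to restrain it. Most of them are strongly transcribed in fetal mesodermal tissues, the heart included, and decline after birth. H19, Meg3, Rian, Mirg and Cdkn1c are known as maternally expressed, and Dlk1, Peg3, Mest, Plagl1 and Ndn as paternally expressed. RNA-seq totals do not separate the parental copies, so the values below are sums over both.

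Gdf11 was at 2.76, 2.30 and 2.31 FPKM in the control libraries and at 0.614, 0.601 and 0.778 FPKM in the shGDF11 libraries, all of which were lower. Its mean was 2.46 ± 0.26 FPKM in control against 0.665 ± 0.0986 FPKM after its hairpin (limma adjusted p = 0.00079). Levels written with ± are the mean and SD over 3 libraries per group. Cardiomyocyte markers made up the bulk of the marker signal. The summed level of 10 of them was 8327 to 8601 FPKM in control and 6976 to 7276 FPKM in shGDF11. Actc1, the largest part of that sum, went from a mean of 4187 to 2767 FPKM. Of the 10, 4 were called lower and 2, Tnni3 and Myl2, were called higher. The sum is thus no measure of these markers as a set. Markers of other cells were present too, and for fibroblast, epicardial, smooth muscle and pericyte, endothelial and macrophage markers the sums did not overlap between the groups. The sum of 11 fibroblast markers was 335.8 to 405.8 FPKM in control and 417.6 to 438.2 FPKM in shGDF11, that of 7 epicardial markers 28.8 to 30.4 and 34.2 to 34.6 FPKM, and that of 8 smooth muscle and pericyte markers 1017 to 1095 and 409.3 to 414.6 FPKM. For 8 endothelial markers the sum was 73.2 to 78.3 and 49.6 to 52.7 FPKM, and for 8 macrophage markers 158.6 to 181.2 and 123.2 to 134.8 FPKM. Single genes weighed on these sums as well, and 45.8% of all genes tested did not overlap between the groups. Lyz2, the largest part of the macrophage sum, went from 114.3 to 85.3 FPKM, while Adgre1, Cd68, Csf1r and Fcgr1 were not called. In the epicardial sum Tbx18 rose from 8.34 to 14.1 FPKM, while Krt19, the largest part in control, fell from 15.7 to 11.1 FPKM. The sums of 7 erythroid markers, 0.125 to 0.478 FPKM in control and 0.421 to 0.890 FPKM in shGDF11, overlapped. So did those of 6 markers of skeletal muscle precursors, at 0.150 to 0.264 and 0.0592 to 0.368 FPKM. Of these markers, 4 and 3 were under 3 reads in every library. No marker of any list was without reads in all libraries. Acta2 made up most of the smooth muscle and pericyte sum, at 992.9 ± 34.2 FPKM in control and 370.3 ± 3.57 FPKM in shGDF11. Of the same list, Tagln was at 0.976, Myh11 at 2.44 and Cnn1 at 27.4 FPKM in control. Which cells the Acta2 transcript came from was not tested. Of those 8 markers 5 were called lower, and Rgs5, Pdgfrb and Notch3 were not called. In such bulk samples fewer cells of a type, less RNA per cell and a change of single marker genes cannot be told apart. Imprinted genes are also expressed in the non-myocytes of the heart.

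The promoter windows of these genes differed widely in CpG content, CpG being the site at which imprints are written. Windows of 300 bases, most of each lying upstream of a transcript start, were taken from RefSeq (GRCm38.p6), which held them for 8 of the 10 genes, H19 and Cdkn1c being the others. Windows are printed for the 4 genes called different between the groups that had one (Meg3, Rian, Peg3 and Ndn) and for Mest, which was not called. Capitals mark TGCCGC, or GCGGCA where it lies on the other strand, the letters bound by the imprint-protecting protein ZFP57 when methylated. They occur on either strand in 11.6% of the 32851 windows of the same length. The windows lie at chr12:109540746-109541045 (Meg3, plus strand), chr12:109603695-109603994 (Rian, plus strand), chr7:6730370-6730669 (Peg3, minus strand), chr7:62348027-62348326 (Ndn, plus strand) and chr6:30737800-30738099 (Mest, plus strand, the second of 3 windows listed, shown for its matches). Those of Ndn and Mest lie inside the gene as the table bounds it, since its first annotated start lies further upstream.
Meg3 promoter window: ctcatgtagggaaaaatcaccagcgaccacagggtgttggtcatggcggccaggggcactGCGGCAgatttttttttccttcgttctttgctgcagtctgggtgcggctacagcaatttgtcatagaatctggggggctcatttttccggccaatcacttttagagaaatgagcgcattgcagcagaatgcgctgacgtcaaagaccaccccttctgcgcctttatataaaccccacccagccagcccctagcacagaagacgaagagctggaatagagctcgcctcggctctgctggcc
Rian promoter window: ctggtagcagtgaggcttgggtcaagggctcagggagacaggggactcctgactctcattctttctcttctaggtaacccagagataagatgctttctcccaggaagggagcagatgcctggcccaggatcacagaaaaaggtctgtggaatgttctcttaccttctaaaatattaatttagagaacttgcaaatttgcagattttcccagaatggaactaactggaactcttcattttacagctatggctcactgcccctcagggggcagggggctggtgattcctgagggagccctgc
Peg3 promoter window: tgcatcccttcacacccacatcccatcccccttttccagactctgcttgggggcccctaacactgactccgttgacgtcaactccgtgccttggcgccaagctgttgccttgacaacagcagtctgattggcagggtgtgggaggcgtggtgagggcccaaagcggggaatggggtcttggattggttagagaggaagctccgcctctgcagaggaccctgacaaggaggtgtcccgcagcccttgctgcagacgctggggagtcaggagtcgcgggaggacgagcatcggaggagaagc
Ndn promoter window: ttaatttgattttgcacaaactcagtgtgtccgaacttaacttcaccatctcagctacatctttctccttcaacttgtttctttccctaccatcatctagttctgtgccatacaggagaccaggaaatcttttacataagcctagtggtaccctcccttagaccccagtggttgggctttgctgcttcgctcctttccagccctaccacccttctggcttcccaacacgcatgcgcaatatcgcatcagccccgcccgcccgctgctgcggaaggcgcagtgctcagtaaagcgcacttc
Mest promoter window: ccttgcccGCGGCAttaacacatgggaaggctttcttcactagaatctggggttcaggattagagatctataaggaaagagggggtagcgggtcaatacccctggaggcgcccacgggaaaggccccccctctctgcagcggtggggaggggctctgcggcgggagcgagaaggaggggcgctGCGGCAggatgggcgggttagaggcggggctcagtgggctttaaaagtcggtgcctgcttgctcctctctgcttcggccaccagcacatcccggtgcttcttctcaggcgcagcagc

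The Mest window held 2 such matches and 17 CpG dinucleotides, and the Meg3 window 1 match and 13 CpG. No match lay in the windows of Peg3, with 13 CpG, of Ndn, with 11, or of Rian, which had no CpG at all. The median over all windows was 7 CpG. Of the windows not printed, that of Plagl1 held 1 match and 26 CpG, and those of Dlk1 (9 CpG) and Mirg (10 CpG) held none, nor did the second window of Meg3 or the first of Mest. The matches are letters in a window only, and methylation was not measured here.

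Several of the transcripts also carry microRNAs, which act by pairing of their seed (bases 2 to 8, in capitals) with target messages. RefSeq places 39 mature microRNAs on the same strand inside 5 of the genes: 2 in H19, 3 in Meg3, 6 in Rian, 26 in Mirg and 2 in Mest. Those of H19 and Meg3 lie in exons, and 4 of them are printed. Of the exon bases, 9.146% in H19 and 8.287% in Meg3 are shared with other listed genes, which had no read. Whether reads over these shared bases were counted for the host is not known. The last 2 lines are the 1 pair that shared a seed among the 38 distinct seeds, both from introns of Mirg. In the order printed they lie at chr7:142577112-142577133 and chr7:142577078-142577099 (minus strand), and at chr12:109563710-109563731, chr12:109563744-109563765, chr12:109735669-109735692 and chr12:109739132-109739152 (plus strand).
mmu-miR-675-5p: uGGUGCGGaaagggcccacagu
mmu-miR-675-3p: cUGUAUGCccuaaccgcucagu
mmu-miR-770-5p: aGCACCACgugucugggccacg
mmu-miR-770-3p: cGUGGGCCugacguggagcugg
mmu-miR-453: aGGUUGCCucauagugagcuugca
mmu-miR-496a-5p: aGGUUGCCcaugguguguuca

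The libraries did not measure mature microRNAs, which are shorter than a sequenced fragment. The listed microRNA genes inside these 5 hosts had at most 3 reads in any library.

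Of the 9 genes that passed the filter on low values, 6 differed between the groups: H19, Meg3, Rian and Peg3 were higher in shGDF11, and Cdkn1c and Ndn were lower. Mest, Plagl1 and Dlk1 were not called, and Mirg was below the filter of a mean of 0.5 FPKM. Over all 15418 genes tested, 27.6% were called (14.4% higher and 13.1% lower), and the 4 rises and 2 falls among 9 are to be read beside those shares. A call is a Benjamini-Hochberg adjusted p under 0.05 in limma on log2(FPKM + 0.5), a scale that understates the change of low genes. Control and shGDF11 values did not overlap in 8 of the 9 genes, as in 45.8% of all genes tested. Of the 4 tested genes known as maternally expressed, 3 rose and 1 fell. Of the 5 known as paternally expressed, 1 rose and 1 fell. The median log2 difference was 0.25 over the 9 genes and 0.01 over all genes tested. The rises numbered 3 without control replicate 1 or 2, and 1, that of H19, without control replicate 3 or any 1 shGDF11 library. The falls numbered 1, that of Cdkn1c, without shGDF11 replicate 2 or 3.

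**Figure D1:**
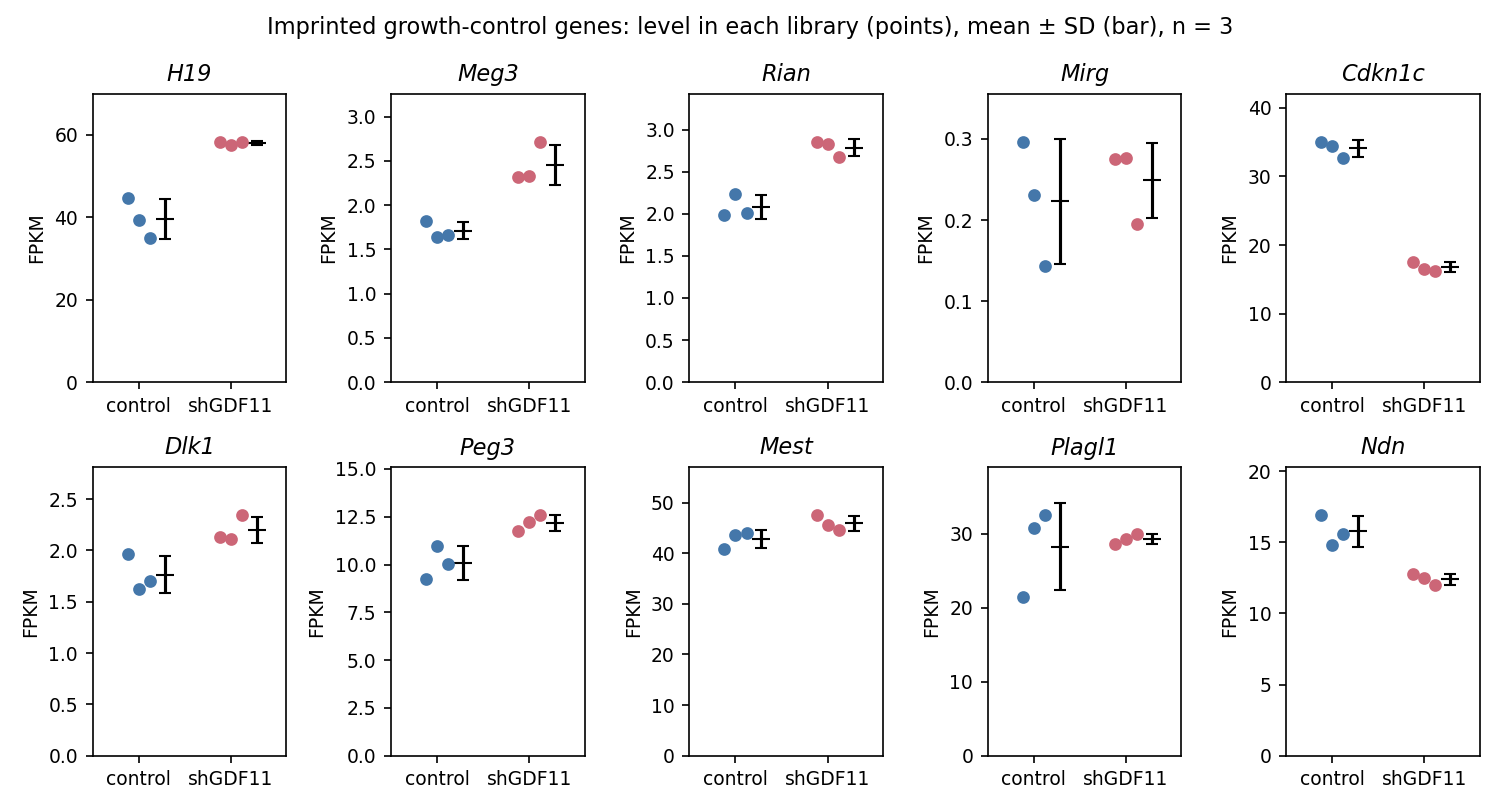
Level in FPKM (y axis, starting at 0, a separate scale for each gene) of the 10 genes in the 3 control and 3 shGDF11 libraries; points are libraries and the black bar is the mean ± SD. The Cdkn1c points of shGDF11 (16.2 to 17.5 FPKM) lie far below those of control (32.7 to 35.1 FPKM), while the points of Mirg and Plagl1 overlap between the groups.

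Cdkn1c showed the largest difference of the 9. It encodes p57, an inhibitor of cyclin-dependent kinases that holds cells out of the cell cycle. The gene (ENSMUSG00000037664) spans 143458339 to 143461050 of chromosome 7 (GRCm38, as for all positions), minus strand. Levels were 35.1, 34.5 and 32.7 FPKM in the control libraries and 17.5, 16.6 and 16.2 FPKM in the shGDF11 libraries, from 1088 to 1173 and from 532 to 588 reads. Every shGDF11 value was below every control value. The mean went from 34.1 ± 1.24 to 16.8 ± 0.71 FPKM, a log2 fold change of -1.0 ± 0.06 (SE) with a 95% interval of -1.15 to -0.86 and a limma adjusted p of 0.00026. Only 3.34% of all tested genes had a larger absolute log2 difference. The call held without any 1 library (limma adjusted p from 0.000625 to 0.00336). Of the exon bases of Cdkn1c, 30.65% lie opposite an antisense gene, Gm44732, which had no read in any library. The strand setting was not given, so whether reads in these bases were counted is not known and the printed level is uncertain.

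Of 7 other CDK inhibitor genes tested, 3 fell, 1 rose and 3 were not called. Over all genes tested 27.6% were called, 14.4% higher and 13.1% lower, and a list of 7 is short beside those shares. Cdkn1a, the p21 gene and a relative of Cdkn1c, fell from 139.3 ± 10.002 to 84.0 ± 4.81 FPKM (log2 fold change -0.73, limma adjusted p = 0.00106). Cdkn2a, which encodes p16 and ARF, fell from 5.68 to 3.31 FPKM, and Cdkn2d, the p19 gene, from 25.98 to 17.1 FPKM. Cdkn3, a phosphatase whose transcript peaks in dividing cells, rose from 2.52 to 5.13 FPKM (limma adjusted p = 0.0037). The 3 falls were 1 without shGDF11 replicate 2, where Cdkn2a (limma adjusted p = 0.0524) and Cdkn2d (0.1205) were not called, and Cdkn2d was also not called when control replicate 2 (0.0769) or shGDF11 replicate 1 or 3 (0.0943 or 0.1063) was omitted. After rescaling to TPM 2 rose and 3 fell, and 2 rose and 4 fell without control replicate 1.

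Cdkn1c belongs to an imprinted domain of distal chromosome 7 in which the long non-coding RNA Kcnq1ot1, transcribed from the paternal copy, silences neighbours on that copy. Its neighbour Phlda2, a maternally expressed growth restrainer best known in placenta, fell as well, from 2.38, 2.03 and 1.97 FPKM in control to 0.489, 0.490 and 0.664 FPKM in shGDF11. These values rest on 36 to 42 and 9 to 12 reads, and the log2 fold change was -1.33 ± 0.133 (SE, limma adjusted p = 0.00101). Kcnq1, a potassium channel gene of the same domain, rose from 7.99 ± 0.34 to 11.3 ± 0.671 FPKM (log2 fold change 0.48, limma adjusted p = 0.0035). Ascl2, a transcription factor gene also maternally expressed, was at 1.255, 1.07 and 0.869 FPKM in control and 0.150, 0.527 and 0.306 FPKM in shGDF11, on 4 to 32 reads. Its limma adjusted p was 0.0192, but 0.0527 or 0.0584 when control replicate 1 or 2 was omitted, and 0.0516 or 0.0589 when shGDF11 replicate 1 or 3 was. Kcnq1ot1 itself was at 0.322 ± 0.0522 and 0.326 ± 0.0347 FPKM, below the filter, with 387 to 568 reads over its length. Ascl2 and Kcnq1ot1 were chosen after their values were seen. Kcnq1 and Kcnq1ot1 overlap on opposite strands, and the strand setting of the read counting was not given. Whether their reads were kept apart is therefore not known, and whether the rise belongs to Kcnq1 alone was not tested.

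H19, a long non-coding RNA abundant in fetal muscle and heart, had the largest rise of the 10 genes. It spans 142575529 to 142578143 of chromosome 7, minus strand (ENSMUSG00000000031). Control libraries held 44.6, 39.4 and 34.9 FPKM and shGDF11 libraries 58.2, 57.4 and 58.4 FPKM, from 1399 to 2351 reads. The shGDF11 libraries lay close together above a control group that was more spread. The mean went from 39.6 ± 4.87 to 58.0 ± 0.483 FPKM (log2 fold change 0.55 ± 0.09 SE, 95% interval 0.34 to 0.76, limma adjusted p = 0.0056). Without any 1 library the limma adjusted p stayed between 0.00199 and 0.0273.

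Igf2, the fetal growth factor that shares enhancers with H19 and is expressed from the other parental copy, was low in these cells. Its levels were 2.56, 2.40 and 1.96 FPKM in control and 1.54, 1.27 and 2.12 FPKM in shGDF11, and the groups overlapped. The log2 fold change was -0.40 with a 95% interval of -0.80 to -0.01 and a limma adjusted p of 0.12, so it was not called. On recovered reads limma voom called it (log2 fold change -0.51, adjusted p = 0.0424). Of its exon bases, 64.55% are shared with other genes, chiefly with the same-strand gene Gm49394, listed without a read, so its level is uncertain. Within each library the log2 ratio of H19 to Igf2 was 3.88, 3.78 and 3.85 in control and 4.84, 5.03 and 4.49 in shGDF11. The ratio was higher by 0.95 in shGDF11, without overlap (exact two-sided permutation test, p = 0.1, the smallest that 3 against 3 allows, and 0.133 adjusted over the 4 ratios tested).

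The Dlk1-Dio3 domain of chromosome 12 holds 4 of the 10 genes, all on the plus strand. Meg3, Rian and Mirg are long non-coding RNAs thought to be read as 1 long unit from the maternal copy, and Dlk1, a membrane protein of the Notch ligand type that restrains differentiation, is expressed from the paternal copy. Meg3 (109541001 to 109571726) was at 1.82, 1.64 and 1.67 FPKM in control and 2.32, 2.33 and 2.72 FPKM in shGDF11. Rian (109603940 to 109661716) was at 1.99, 2.24 and 2.01 FPKM in control and 2.86, 2.83 and 2.67 FPKM in shGDF11. Both were higher in every shGDF11 library than in any control library. The log2 fold change was 0.42 ± 0.099 (SE) for Meg3 and 0.35 ± 0.0866 for Rian, with limma adjusted p = 0.0213 and 0.0246. FPKM divides by all annotated exons together, 18089 bases for Meg3 and 18234 for Rian, so a shorter isoform would have a higher level than printed.

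These 2 calls were near the threshold. The limma adjusted p of Meg3 was 0.065 without control replicate 2 and 0.0501 without control replicate 3, and it was 0.051, 0.0584 and 0.0785 when shGDF11 replicate 1, 2 or 3 was omitted. That of Rian was 0.0582 without control replicate 3, and 0.0827, 0.0896 and 0.0617 when shGDF11 replicate 1, 2 or 3 was omitted.

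Mirg (109729764 to 109749460) is the third RNA of the unit and hosts 26 of the 39 mature microRNAs found inside the members. It had few reads: 34, 28 and 17 in control and 33, 33 and 23 in shGDF11. Its FPKM of 0.297, 0.230 and 0.143 in control and 0.275, 0.276 and 0.196 in shGDF11 overlapped. The depth-scaled ratio of its reads, shGDF11 over control, was 1.12 (95% exact interval 0.817 to 1.54, counting error only), so at this depth neither no change nor a change of the size seen in Meg3 could be told apart. Dlk1 (109452823 to 109463336) was at 1.97, 1.62 and 1.70 FPKM in control and 2.13, 2.12 and 2.34 FPKM in shGDF11. All its shGDF11 values were above the control values, but it was not called (log2 fold change 0.25, 95% interval 0.01 to 0.50, limma adjusted p = 0.11). With estimated library weights its limma adjusted p was 0.0346.

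Whether the neighbours moved by the same amount was asked through ratios within each library. The log2 ratio of Rian to Meg3 was 0.10, 0.35 and 0.21 in control and 0.25, 0.24 and -0.02 in shGDF11, which overlapped (difference -0.07, exact permutation p = 0.7). Without shGDF11 replicate 3 that difference was 0.02. The ratio of Dlk1 to Meg3 was lower by 0.16 in shGDF11 without overlap, at 0.0881, -0.0152 and 0.0224 in control and -0.101, -0.113 and -0.178 in shGDF11 (exact permutation p = 0.1, adjusted 0.133). That of Mirg to Meg3 differed by -0.36 (exact permutation p = 0.1, adjusted 0.133), on a scale where the pseudocount of 0.5 exceeds the level of Mirg and so damps its part.

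**Figure D2:**
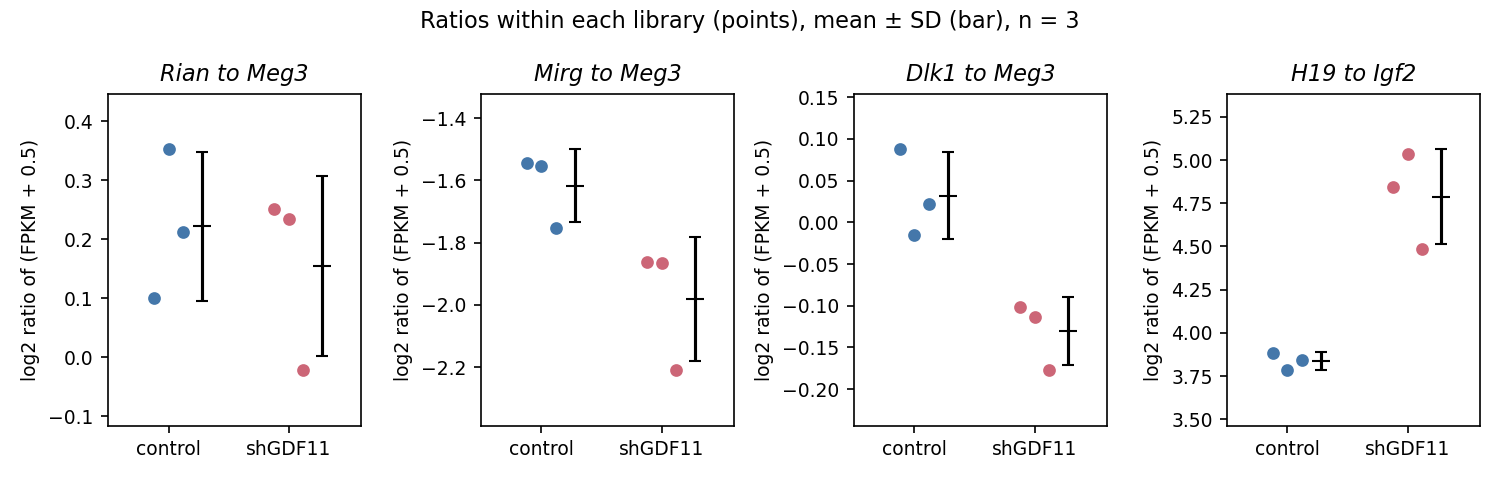
Log2 ratio of (FPKM + 0.5) between pairs of imprinted neighbours within each library (y axis, a separate scale for each pair, not starting at 0); points are the 3 control and 3 shGDF11 libraries, and the black bar is the mean ± SD. The ratio of H19 to Igf2 lies between 3.78 and 3.88 in control and between 4.49 and 5.03 in shGDF11, while that of Rian to Meg3 overlaps between the groups.

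Peg3, Ndn and Plagl1 encode nuclear regulators. Peg3, a zinc finger protein linked to growth and to cell death, rose from 9.22, 10.98 and 10.03 FPKM in control to 11.8, 12.2 and 12.6 FPKM in shGDF11. It spans 6703892 to 6730431 of chromosome 7, minus strand. The groups did not overlap, but control replicate 2 came near the lowest shGDF11 library. Its log2 fold change of 0.26 ± 0.0774 (SE) had a limma adjusted p of 0.0423. It was not called when control replicate 1 or 3 was omitted (limma adjusted p = 0.0657 or 0.0829), nor when shGDF11 replicate 1, 2 or 3 was (0.0848, 0.1231 or 0.1331).

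Ndn encodes necdin, a protein that binds E2F factors and restrains growth. It spans 62346569 to 62350262 of chromosome 7, plus strand. It fell from 16.9, 14.8 and 15.6 FPKM in control to 12.8, 12.5 and 11.998 FPKM in shGDF11, with 911 to 982 and 715 to 775 reads. The 3 shGDF11 values were the 3 lowest. The log2 fold change was -0.33 ± 0.0688 (SE, 95% interval -0.49 to -0.17, limma adjusted p = 0.0134). Without shGDF11 replicate 2 or 3 the limma adjusted p was 0.0525 or 0.0567.

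Plagl1, also called Zac1, is a zinc finger factor known to bind regulatory regions of other imprinted genes, H19 and Igf2 among them. On chromosome 10 at 13060504 to 13131694, it was at 21.5, 30.7 and 32.5 FPKM in control and 28.6, 29.3 and 29.9 FPKM in shGDF11. The shGDF11 values all lay inside the control range, which was widened by control replicate 1. The log2 fold change was 0.07 with a 95% interval of -0.28 to 0.42 (limma adjusted p = 0.75), and -0.11 without control replicate 1. Plagl1 was thus not called, with an interval that admits changes in either direction.

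Mest encodes an enzyme of the alpha/beta hydrolase fold. Its mean level was the highest of the 10 genes in control, with control values that overlapped those of H19. Mest spans 30723547 to 30748465 of chromosome 6, plus strand. Control libraries were at 40.8, 43.7 and 44.0 FPKM and shGDF11 libraries at 47.5, 45.6 and 44.6 FPKM. The values did not overlap, yet the gap was small and Mest was not called (log2 fold change 0.10, 95% interval -0.04 to 0.24, limma adjusted p = 0.25). The interval leaves out a rise or fall of the size seen in Cdkn1c. Of its exon bases, 23.12% are shared with other genes, 912 of them with Copg2 on the other strand, whose level went from 17.9 ± 1.33 to 15.2 ± 0.89 FPKM without a call (limma adjusted p = 0.0677). Without control replicate 1 Copg2 was called (limma adjusted p = 0.029).

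Per length, the control levels ran from 42.8 ± 1.73 FPKM for Mest through H19 (39.6), Cdkn1c (34.1), Plagl1 (28.2), Ndn (15.8), Peg3 (10.1), Rian (2.08), Dlk1 (1.76) and Meg3 (1.71) to Mirg (0.223). The control values of Mest and H19, of H19 and Cdkn1c, and of Dlk1 and Meg3 overlapped, and the other neighbours in that order did not. In shGDF11, H19 (58.0) stood above Mest (45.9), and Cdkn1c (16.8) below Plagl1 (29.3).

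**Figure D3:**
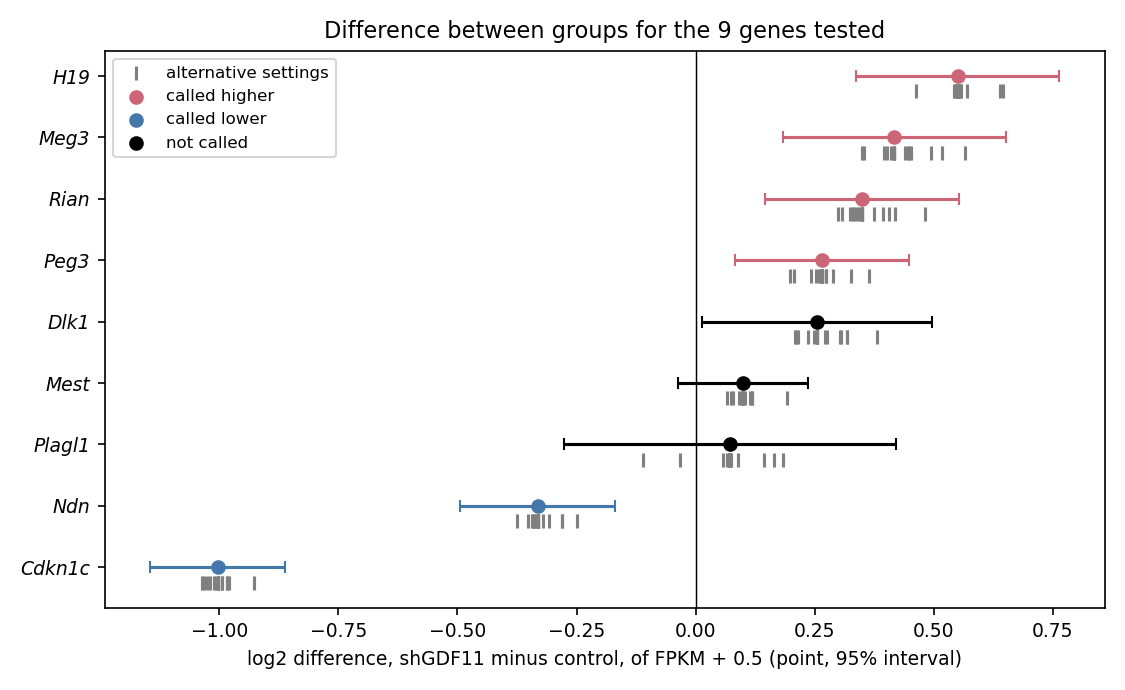
Log2 difference between shGDF11 and control (x axis, on FPKM + 0.5) for the 9 genes tested; the coloured point is the estimate with its 95% interval, and the grey ticks below it are the estimates under alternative settings. Cdkn1c stands alone near -1.0, and only Plagl1 has ticks on both sides of 0.

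Beyond these 10, other genes known as imprinted moved in both directions. Whether each of them is imprinted in these cells was not tested. Of 40 listed, 30 were tested, of which 6 rose, 6 fell and 18 were not called, a share of calls to be read beside the 27.6% of all genes. Their median log2 difference was -0.18. Blcap, a gene linked to cell growth, fell from 33.3 ± 1.58 to 22.1 ± 0.616 FPKM (log2 fold change -0.58, limma adjusted p = 0.00106). Nap1l5, a paternally expressed gene of the nucleosome assembly protein family, rose from 1.39 ± 0.261 to 2.63 ± 0.163 FPKM (log2 fold change 0.73, limma adjusted p = 0.0072). Phlda2 and Kcnq1 were the other 2 with the smallest p. The rises were 3 without shGDF11 replicate 2 and the falls 3 without shGDF11 replicate 3. At a mean of at least 5 FPKM 2 rose and 3 fell, and limma voom on recovered reads called 10 falls.

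**Figure D4:**
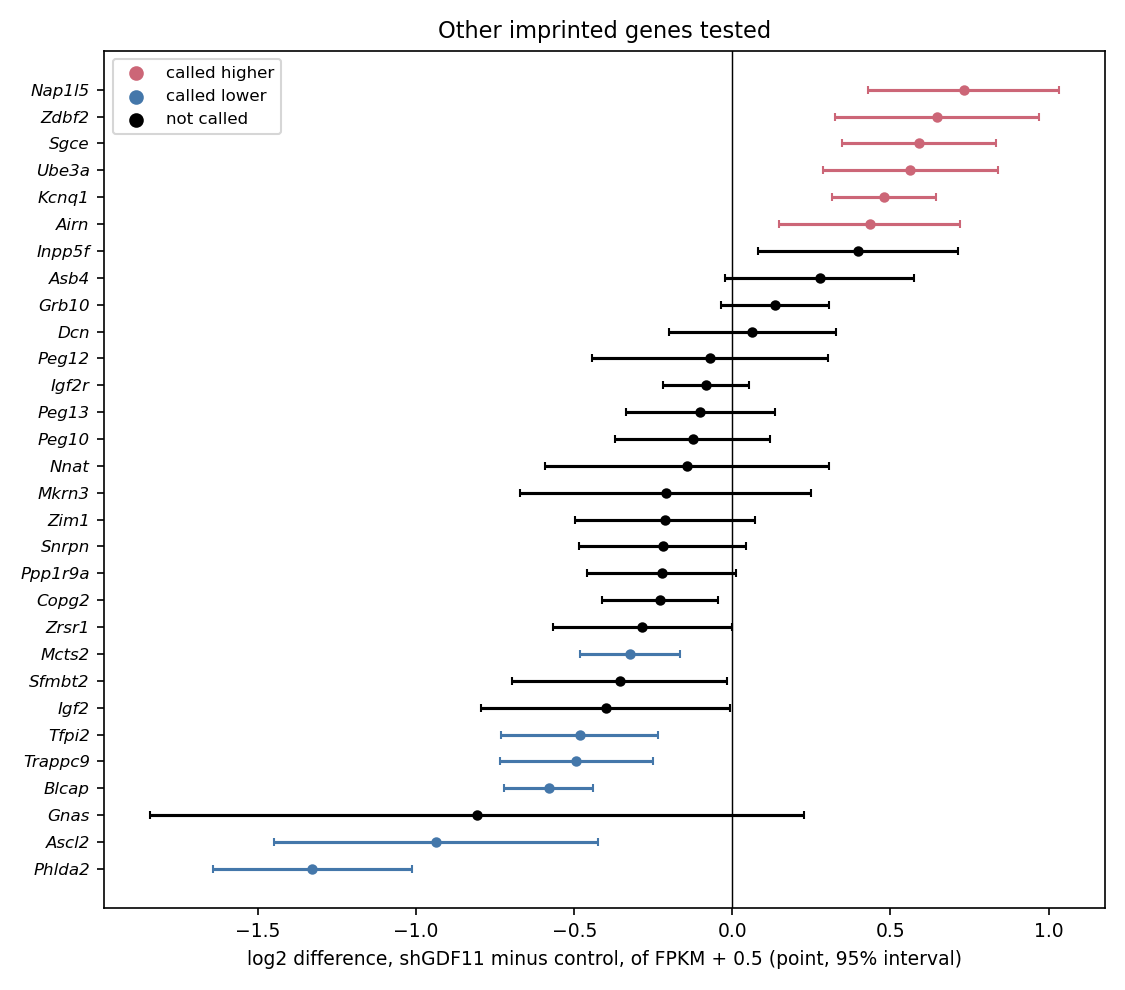
Log2 difference between shGDF11 and control (x axis, on FPKM + 0.5) for the 30 other imprinted genes tested, ordered by the difference; points are estimates and lines their 95% intervals, red where called higher, blue where called lower and black where not called. The 6 called rises and 6 called falls lie on both sides of 0, with Phlda2 lowest at -1.33 and Nap1l5 highest at 0.73.

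Insulin-like growth factor genes, the pathway through which several imprinted genes act on growth, were also mixed. Of 18 tested, 3 rose and 6 fell, with a median log2 difference of -0.13. These counts are to be read beside the 27.6% of all genes called (14.4% higher and 13.1% lower). Irs1, an adaptor of the insulin and IGF1 receptors, fell from 2.97 ± 0.305 to 1.54 ± 0.0522 FPKM (log2 fold change -0.76, limma adjusted p = 0.0023). Irs2, its relative, fell from 4.99 to 3.79 FPKM (limma adjusted p = 0.0149). Insr, the insulin receptor gene, rose from 6.12 ± 0.54 to 8.21 ± 0.0238 FPKM (limma adjusted p = 0.0101), and Igfbp6, which binds IGF2, from 7.81 to 10.8 FPKM (limma adjusted p = 0.014).

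The counts of the IGF axis depended on the libraries. The rises were 1 without any 1 shGDF11 library, whichever it was. The falls were 3 with control replicate 1, control replicate 3 or shGDF11 replicate 2 omitted, 2 with shGDF11 replicate 1 omitted, and 1 with control replicate 2 or shGDF11 replicate 3 omitted. After rescaling to TPM 4 rose and 1 fell, with Irs2 at a limma adjusted p of 0.0544. Irs2 was not called when control replicate 2 (limma adjusted p = 0.0539) or shGDF11 replicate 2 or 3 (0.0636 or 0.0569) was omitted, nor Igfbp6 without shGDF11 replicate 1 (0.0514), 2 (0.0501) or 3 (0.0513).

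Genes that maintain imprints were mostly not called, with 4 rises, 2 falls and 14 not called of 20, a share of calls near the 27.6% of all genes tested and so no result about these genes as a list. Zfp445, a KRAB zinc finger protein that guards imprints beside ZFP57, rose from 24.3 ± 2.28 to 38.4 ± 0.352 FPKM (log2 fold change 0.65, limma adjusted p = 0.0016). Uhrf1, which brings the maintenance methyltransferase to replicated DNA, rose from 10.1 to 13.6 FPKM, and Ctcf, the insulator protein that binds the H19 control region, from 12.8 ± 0.33 to 16.8 ± 0.872 FPKM (limma adjusted p = 0.0041 and 0.0059). Arid4a rose from 5.89 to 7.38 FPKM (limma adjusted p = 0.0175), but not without shGDF11 replicate 2 (0.0703) or 3 (0.0674). For Zfp57 the levels were 1.48 ± 0.214 and 1.40 ± 0.173 FPKM, without a call (limma adjusted p = 0.76). The 2 falls were the Polycomb gene Suz12 and the methylcytosine dioxygenase gene Tet1, named with Zfp57 and Copg2 after their values were seen. These 2 falls were 1 without control replicate 3 and 0 without control replicate 2 or any 1 shGDF11 library, where the limma adjusted p of Suz12 was at most 0.0674 and that of Tet1 at most 0.0656. After rescaling to TPM 5 rose and 0 fell, with the limma adjusted p at 0.108 for Suz12 and 0.0614 for Tet1.

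Genes whose profile over the 6 libraries was most like that of H19, by Euclidean distance between centred log2(FPKM + 0.5) values, were Git1 (distance 0.0668), Rnf10 (0.0824) and Kctd7 (0.084), all protein-coding. Those most like Cdkn1c were Nrep (0.104), Reep1 (0.115) and the smooth muscle actin gene Actg2 (0.125). With 6 libraries in 2 groups this measure is set mainly by the group difference. Kctd7 was not called without shGDF11 replicate 1 (limma adjusted p = 0.0513).

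Cell type markers were called beside these genes, and their counts are to be read against the 27.6% of all genes called (14.4% higher and 13.1% lower). Of 11 fibroblast markers 3 rose and 0 fell (Col1a2, Col3a1 and Ddr2, named after their values were seen, of which Ddr2 was not called without shGDF11 replicate 1, 2 or 3, at a limma adjusted p of 0.074, 0.075 or 0.0558). The other 8 were not called and differed in either direction. Their log2 fold changes were 0.21 (Col1a1), 0.21 (Lum), 0.19 (Fbln2), 0.12 (Postn), -0.13 (Loxl1), -0.15 (Thy1), -0.17 (Pdgfra) and -0.17 (Tcf21). Of 7 epicardial markers 3 rose and 1 fell, the fall not being called without shGDF11 replicate 1 or 3. Smooth muscle and pericyte markers fell in 5 of 8 cases, among them Acta2 with a log2 fold change of -1.42, but in 2 with control replicate 2 or shGDF11 replicate 1 omitted and in 3 with control replicate 3 or another shGDF11 library omitted. Of 8 endothelial markers 6 fell, and of 7 macrophage markers tested 3 fell. Cardiomyocyte markers numbered 2 rises and 4 falls of 10. Omitting control replicate 1 gave 4 such rises, omitting control replicate 2 or 3 or shGDF11 replicate 1 gave 1, and omitting shGDF11 replicate 2 or 3 gave 0. The falls were 2 when control replicate 2 or shGDF11 replicate 2 or 3 was omitted. After rescaling to TPM the cardiomyocyte markers showed 4 rises and 3 falls. The part of these cell types in the differences of H19, Meg3, Rian, Peg3, Cdkn1c and Ndn was not tested.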

How the data were processed

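The values used were FPKM, which the authors deposited as 1 table of 54532 genes by 6 libraries. Per the submitters' processing notes, CASAVA 1.8, HISAT2 2.0.5 and featureCounts 1.5.0-p3 were used, with the builds GRCm38 and mm10. The role of each, the annotation release and the strand setting were not given in the sources used here. Coordinates are those of the table, and 53499 of 54409 genes found in GENCODE M21 (GRCm38) matched it, the 10 members included. Libraries were grouped by treatment label. Reads were recovered as the product of FPKM and gene length over the value of 1 read (100% of positive values within 0.05 of a whole read). Genes at a mean of 0.5 FPKM or more entered limma 3.58.1 as log2(FPKM + 0.5) (eBayes with variance trend, two-sided, R 4.3.3), with Benjamini-Hochberg adjustment over all 15418 genes. The code was tested on simulated reads. Ratios used exact permutation tests. No count model was fitted, and limma voom on recovered reads was an alternative. Named genes were the members, Gdf11, Igf2, the 4 smallest p of each list and the 3 nearest profiles to the largest rise and fall. Members and lists were chosen with earlier results of these data known. Alternatives varied the pseudocount, filter, scaling, variance trend, library weights, replicate block and the libraries used. Intervals on reads cover counting error only.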

Additional observations from a re-analysis of the deposited data

How the results depend on the processing

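Cdkn1c and H19 kept their direction and call under all 17 alternatives run, with log2 fold changes of -1.04 to -0.93 and 0.46 to 0.65. Ndn kept its direction in 17 and its call in 15. Meg3 kept its call in 9 of 16, Rian in 10 of 16 and Peg3 in 8 of 17, all with the same direction. The 4 member rises were 1 with no filter on low values, 2 with a filter of 5 FPKM, where Meg3 and Rian are not tested, and 1 when the replicate number was a block. Whether the numbers pair the samples is not in the labels. The correlation of deviations between same-numbered libraries was 0.0153, 0.015 and -0.0521, which gave no sign of pairing but cannot exclude it. Leaving out 1 library gave 1 to 3 member rises, 1 to 2 member falls, 2328 to 4233 called genes, and 3 to 6 rises and 3 to 8 falls among other imprinted genes. The latter were 2 and 3 with the 5 FPKM filter and fewer genes tested, and limma voom gave 10 falls. The log2 fold change of Plagl1 was -0.0332 with estimated library weights and -0.11 to 0.18 without 1 library. That of Zfp57 was 0.0074 after rescaling to TPM and -0.13 to 0.0245 without 1 library. The difference in the ratio of Rian to Meg3 ran from -0.13 to 0.021 without 1 library. After rescaling to TPM 66.2% of called genes were higher, against 52.4%, and the median of all genes was 0.09. The cause of the other changes was not tested. Depth limited Mirg.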
